A study of Mus musculus with 3 samples.

Results

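The genes described here encode adhesion molecules of leukocytes, integrin chains and the adhesion regulator Cytip, 10 genes in all among the 19938 genes with a probe set of their own on the arrays. They are Icam1, Icam2, Vcam1, Itgam, Itgal, Itgax, Itgb2, Itga4, Itgb1 and Cytip. They were chosen by family and because Icam1 and Cytip differed in opposite directions between arrays, so the differences of these 2 genes are given as a description in every comparison and support nothing. Transcripts were measured in cultured peritoneal macrophages of male Angptl4-/- mice of strain C57Bl/6J, collected 3 days after an injection of 4% thioglycollate, an irritant that recruits macrophages to the peritoneum. After 2 days in culture the cells were exposed for 6 h to phosphate-buffered saline (PBS), to intralipid, a triglyceride emulsion, at 0.5 mM, or to the same intralipid with 2.5 µg/mL recombinant mouse ANGPTL4, added 1.5 h earlier. The secreted protein ANGPTL4 inhibits lipoprotein lipase, and the cells of all 3 groups carried the Angptl4-/- genotype. The Angptl4 probe set read 4.92 (log2) on each array, which does not check the genotype, since all 3 groups share it and the position of the probes within the gene is not known. Whether the other cultures had a matching pre-incubation is not given in the sources used here. Each group was 1 array that carried RNA pooled from 3 samples, so the spread between cultures cannot be estimated, no test was run, and "higher" and "lower" describe these 3 arrays. The comparison of both intralipid arrays describes adhesion genes under a lipid load with and without ANGPTL4. No array had ANGPTL4 without lipid. An altered response to lipid therefore cannot be told apart from an effect of the added protein on its own.

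Leukocytes adhere through integrins, heterodimers of an alpha and a beta chain that switch between a resting and a ligand-binding state. Itgb2 encodes the beta2 chain, which pairs with the product of Itgal to form LFA-1, with that of Itgam to form Mac-1 (complement receptor 3) and with that of Itgax to form complement receptor 4. LFA-1 binds the immunoglobulin-type molecules ICAM-1 and ICAM-2, and Mac-1 binds ICAM-1 as well. The alpha4 chain from Itga4 and the beta1 chain from Itgb1 form VLA-4, a receptor for VCAM-1 and fibronectin. Cytip encodes a cytoplasmic scaffold that binds cytohesin-1, an exchange factor for ARF GTPases that acts on beta2 integrins, and in dendritic cells it is known for a role in loosening contact with T cells.

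All 10 genes had exactly 1 probe set of their own, and all 10 lay above the expression floor on all 3 arrays. The floor, taken per array as the median over all probe sets that carry a gene symbol, was 4.98 on the PBS array and 4.97 on both others (log2). A gene was called where 2 arrays differed at least 2-fold, provided that the higher one was at or above its floor. Macrophage markers were present, with 13 of 13 measured members past the floor on every array. Markers of B cells (7 measured), of T and NK cells (10) and of mast cells (8) had 0 members past the floor, as did dendritic cell markers other than Fscn1 and, on the intralipid array only, Clec9a. Of 11 neutrophil markers 2 were past it (S100a8 and Csf3r), with Ly6g, Mpo and Elane below, and of 4 eosinophil markers 1 was (Siglecf), with Epx, Prg2 and Ccr3 below. Of 12 markers of mesothelial cells and fibroblasts, 7 were past the floor on each array, Col1a1 and Dcn among them, and of 9 endothelial markers 3 were (Kdr, Cldn5 and Vwf), with Cdh5 and Tek below it. In RNA of whole cultures, fewer cells of a type and less RNA per cell cannot be told apart. Of the 10090 genes past the floor on at least 1 array, 2530 (25.1%) had an identical value on all 3 arrays, and so did 1 of the adhesion genes, Itgax.

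The windows upstream of Icam1 and Cytip are shown because these 2 genes had the largest differences of the 10 between the 2 intralipid arrays, in opposite directions. They are the 250 bases before 1 annotated start of each gene, from RefSeq (build GRCm38.p6), printed 5′ to 3′ on the gene's strand. The Cytip window lies inside the RefSeq span of the gene, before 1 of its annotated starts, and which start these macrophages use is not known, so its motif positions and base composition hold for that start alone. The Icam1 window is chr9:21015690-21015939 (plus strand) and the Cytip window chr2:58160123-58160372 (minus strand). Capitals mark the motif matches named below.
Icam1: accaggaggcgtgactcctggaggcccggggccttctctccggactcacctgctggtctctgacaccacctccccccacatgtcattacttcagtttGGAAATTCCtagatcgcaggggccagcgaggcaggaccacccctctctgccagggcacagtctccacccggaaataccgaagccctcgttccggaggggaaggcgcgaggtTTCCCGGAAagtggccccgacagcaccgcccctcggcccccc
Cytip: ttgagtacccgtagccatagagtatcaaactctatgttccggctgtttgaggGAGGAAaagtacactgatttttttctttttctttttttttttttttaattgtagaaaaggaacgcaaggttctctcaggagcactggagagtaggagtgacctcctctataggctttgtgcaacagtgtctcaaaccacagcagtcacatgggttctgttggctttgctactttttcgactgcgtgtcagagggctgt

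Both strands were searched for the kappa-B consensus of NF-kB, the AP-1 motif TGANTCA, the cAMP response element TGACGTCA and its core TGACG, the GAS motif of STAT factors TTCNNNGAA and the PU.1 core GAGGAA. In the Icam1 window, the GAS motif matched from 42 to 34 bases before the start, and 7.02% of the 32851 windows of the same length in the table held that motif. The kappa-B consensus was not matched there (3.9% of all windows held it). The related letters GGAAATTCC, searched only after the window had been read, lay from 153 to 145 bases before the start and were held by 0.286% of windows. In the Cytip window, the PU.1 core matched from 198 to 193 bases before the start (23.3% of windows), and neither the GAS motif nor the kappa-B letters did. Neither window held AP-1 (6.75% of windows), the cAMP response element (1.55%) or its core (17.8%). Windows were at hand for 6 of the 10 genes. Outside Icam1 and Cytip, the matches were AP-1 in Itgax, the PU.1 core in Itgam and Itgb1, and the cAMP response element core in Itgb1. A match shows only that these letters are present, and no binding was measured. G and C made up 65.2% of the Icam1 window and 42.8% of the Cytip window, against a median of 52.4% over all windows.

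Icam1 (probe set 10583519) is the inducible ligand of LFA-1 and Mac-1. Its log2 value was 7.22 under PBS, 6.53 under intralipid and 9.19 under intralipid plus ANGPTL4. The array with ANGPTL4 was the highest and the intralipid array the lowest. Icam1 was thus 6.32-fold higher with ANGPTL4 than under intralipid alone and 3.91-fold higher than under PBS, while intralipid alone was 1.62-fold below PBS. Its level with ANGPTL4 lay above both other arrays. Its log2 differences were -0.69 for intralipid against PBS, 2.66 for ANGPTL4 against intralipid and 1.97 for ANGPTL4 against PBS. The robust SDs in these comparisons were 0.27, 0.28 and 0.10 among the 1000 genes of nearest level. A robust SD is the half-width of their central differences, a spread over genes and not over cultures. Identical values make it narrower, and 32.2%, 30.7% and 40.2% of all genes past the floor had them in these comparisons. Icam1 was chosen for its differences, so these values only describe it.

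The other immunoglobulin-type molecules did not share this pattern. Icam2, a constitutive ligand of LFA-1 known from endothelium and resting leukocytes, had log2 values of 5.31 under PBS, 5.17 under intralipid and 5.01 under ANGPTL4. All 3 were close to the floor, and the differences did not exceed 1.23-fold. Vcam1, the inducible ligand of VLA-4, had 6.19, 6.72 and 6.83, and values given as 3 in a row below follow this order of arrays. It was 1.45-fold higher with intralipid than under PBS and 1.56-fold higher with intralipid plus ANGPTL4, and the 2 intralipid arrays differed by 1.08-fold. Vcam1 was thus higher on both arrays with lipid, by less than 2-fold. The endothelial markers' summed level was a log2 value of 8.45 under PBS, 8.56 under intralipid and 8.34 under ANGPTL4, that of the mesothelial and fibroblast markers was 11.26, 11.25 and 11.24, and their part in the values of Icam2 and Vcam1 was not tested.

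**Figure D1:**
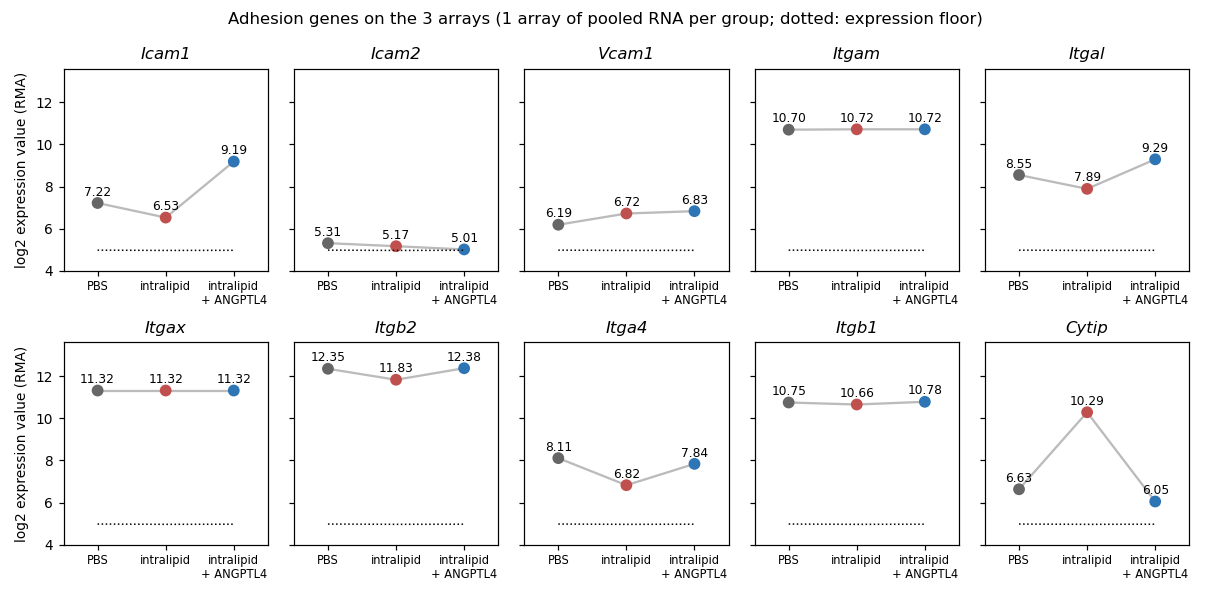
Log2 expression value of each of the 10 adhesion genes on the PBS, intralipid and intralipid plus ANGPTL4 arrays, 1 point per array, with the expression floor as a dotted line. Icam1 was highest with ANGPTL4 (9.19), Cytip was highest with intralipid alone (10.29), and Itgax held 11.32 on all 3 arrays.

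Among the beta2 integrin genes, the alpha chain of LFA-1 differed most. Itgal had a log2 value of 8.55 under PBS, 7.89 under intralipid and 9.29 under intralipid plus ANGPTL4, the same order of arrays as Icam1. It was 2.64-fold higher with ANGPTL4 than under intralipid alone, 1.67-fold higher than under PBS, and 1.58-fold lower with intralipid than under PBS. Of the other 9 genes, Itgal had the profile nearest to that of Icam1, at a distance of 1.01 log2 units over the 3 arrays after each profile was centred on its mean. The shared beta2 chain, Itgb2, had 12.35, 11.83 and 12.38. It was 1.44-fold lower with intralipid than under PBS and 1.46-fold higher with ANGPTL4 than under intralipid alone, and the arrays with PBS and with ANGPTL4 differed by 1.02-fold. The other beta2 partners differed by no more than 1.01-fold. Itgam, the alpha chain of Mac-1 and a common myeloid marker, had 10.70, 10.72 and 10.72, and Itgax, the alpha chain of complement receptor 4, had 11.32 on each array. Neutrophils and eosinophils also carry beta2 integrins. The summed level of the neutrophil markers was a log2 value of 8.78, 8.66 and 8.66 and that of the eosinophil markers 7.75, 7.58 and 7.75, and their part in the values of the beta2 genes was not tested. A further 3 probe sets were annotated to both Itgam and the ribosomal protein gene Rpl35 and were not used. Itgal, Itgam and Itgax lie on the same mouse chromosome, Itgam and Itgax next to each other.

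The chains of VLA-4 also differed from each other. Itga4 had a log2 value of 8.11 under PBS, 6.82 under intralipid and 7.84 under intralipid plus ANGPTL4. The intralipid array was the low one, 2.44-fold below PBS, and with ANGPTL4 the level was 1.21-fold below PBS. The difference between the 2 intralipid arrays was 2.02-fold, a log2 difference of 1.01 that was just inside the 2-fold limit and fell to 0.94 with quantile normalization and 0.99 with cyclic loess. Itgb1, the partner of many alpha chains, had 10.75, 10.66 and 10.78. None of its differences exceeded 1.09-fold, within the robust SD of 0.28, 0.30 and 0.13 among genes of like level in the comparisons of intralipid with PBS, ANGPTL4 with intralipid, and ANGPTL4 with PBS.

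Cytip (probe set 10482802) had the largest differences of the 10 genes with intralipid against PBS and between the 2 intralipid arrays, in the direction opposite to those of Icam1, Itgal and Itga4. With ANGPTL4 against PBS, Icam1, Itgal and Vcam1 differed more than Cytip, and Itga4 was lower, as Cytip was. Its log2 value was 6.63 under PBS, 10.29 under intralipid and 6.05 under intralipid plus ANGPTL4. The intralipid array stood high, 12.6-fold above PBS. With ANGPTL4 the level was 18.9-fold below that with intralipid alone and 1.50-fold below PBS. Its log2 differences were 3.66 for intralipid against PBS, -4.24 for ANGPTL4 against intralipid and -0.58 for ANGPTL4 against PBS. The robust SDs among genes of like level were 0.27, 0.28 and 0.10. Cytip too was chosen for its differences, so these values only describe it. Because Cytip is known from lymphocytes and dendritic cells, their markers are given beside it. Of the B cell markers and of the T and NK cell markers, 0 were past the floor on any array. Clec9a, a marker of a dendritic cell subset, had log2 values of 3.44, 5.00 and 3.32, also highest with intralipid, where it was 0.03 above the floor. The summed level of the 9 dendritic cell markers was a log2 value of 7.85, 7.87 and 7.85. Of these 9, Fscn1 was past the floor on every array, and Flt3, Zbtb46, Xcr1 and Ccr7 were below it on every array. Only 2 of the 9 were past the floor on any array, so the sum includes values below the floor and does not measure the number of such cells. The part of such cells in the Cytip values was not tested.

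Counted over the 10 genes, intralipid against PBS gave 1 gene at least 2-fold higher (Cytip) and 1 at least 2-fold lower (Itga4), where 2.51% of 10049 genes tested were higher and 1.32% lower. At 1.5-fold, 1 was higher and 3 were lower (Icam1, Itgal and Itga4), against 5.07% and 5.57% of all genes. With ANGPTL4 against intralipid alone, 3 were at least 2-fold higher (Icam1, Itgal and Itga4) and 1 lower (Cytip), beside 2.53% and 2.3% of 10064 genes. The counts were the same at 1.5-fold, beside 8.26% and 4.95%. With ANGPTL4 against PBS, 1 was at least 2-fold higher (Icam1) and 0 lower, where 0.85% and 0.04% of 9995 genes were. At 1.5-fold, 3 were higher (Icam1, Vcam1 and Itgal) and 0 lower, against 2.37% and 0.53%. Icam1 and Cytip were chosen for opposite directions, which they had in every comparison. That choice bears on all of these counts, so counts above the shares of all genes only describe the chosen genes and support nothing. The median log2 difference over the 10 genes was -0.12, 0.12 and 0.02 in these comparisons, and that over all genes past the floor was 0.00 in each. Of the 10 genes, 5 had their lowest value on the intralipid array (Icam1, Itgal, Itgb2, Itga4 and Itgb1), as did 39.3% of all genes past the floor. Each pair of comparisons shares an array, so a high or low intralipid array alone gives differences of opposite sign in the first and the second comparison.

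**Figure D2:**
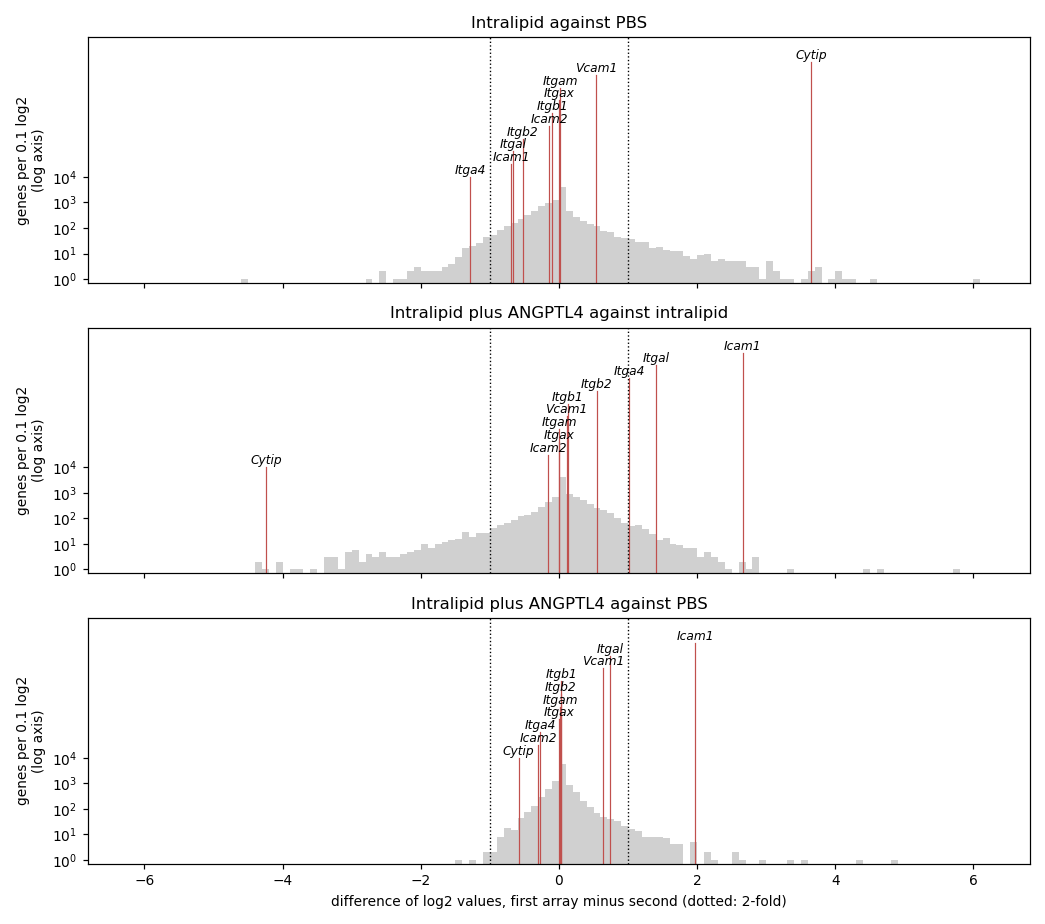
Differences of log2 values for all 10090 genes past the floor (grey histogram, log axis of gene counts) in the 3 comparisons, with the 10 adhesion genes as labelled red lines whose heights carry no value. Cytip lay at 3.66 with intralipid against PBS and at -4.24 with ANGPTL4 against intralipid, and Icam1 at 2.66 and, against PBS, at 1.97.

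Genes that work with the 10 were described through 9 lists of adhesion pathway genes, 203 genes measured and 151 past the floor. Among those 151, 11 were at least 2-fold higher with intralipid than under PBS (7.28%, against 2.51% of all genes tested) and 4 lower (2.65%, against 1.32%). With ANGPTL4 against intralipid alone, 12 were higher (7.95%, against 2.53%) and 9 lower (5.96%, against 2.3%). With ANGPTL4 against PBS, 6 were higher (3.97%, against 0.85%) and 0 lower (against 0.04%). The same shares of all genes stand beside the 2-fold counts of each list below. The lists were picked for leukocyte adhesion with earlier results of these data known, and 1 of them, the regulators of Icam1 and Vcam1 given last, held 8 of the 15 genes called with intralipid against PBS, 9 of the 21 called with ANGPTL4 against intralipid and 5 of the 6 called with ANGPTL4 against PBS.

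Other integrin chains had 9 of 21 members past the floor, and 0 of them differed 2-fold in any comparison. Among all genes tested, at most 2.53% differed 2-fold in any 1 comparison and direction. Counts of 0 or 1 do not set lists this short apart from all genes. Itgav, an alpha chain of vitronectin receptors, had log2 values of 9.33, 9.10 and 9.70, and its partner chains Itgb3 and Itgb5 had 7.19, 7.41 and 6.84, and 11.06, 10.44 and 10.78. Of the other immunoglobulin-type adhesion molecules, 10 of 23 were past the floor and only Pvr, a nectin-like receptor also known as CD155, differed 2-fold. Pvr had 7.37, 9.55 and 8.19, 4.52-fold higher with intralipid than under PBS and 2.57-fold lower with ANGPTL4 than under intralipid alone. Among selectin ligands, Selplg, which encodes PSGL-1, had 9.67, 9.52 and 9.54, and the hyaluronan receptor Cd44 had 9.14, 9.80 and 9.54. Fut4, a fucosyltransferase of selectin ligands, was 2.25-fold higher with ANGPTL4 than under intralipid alone (log2 values of 4.09 and 5.27), which was 1.23-fold against the floor.

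The list on integrin activation holds genes for proteins that switch integrins on and for others that restrain them, such as Sharpin, so its counts are not those of activators alone. Among all genes tested, 2.51% were at least 2-fold higher with intralipid than under PBS and 1.32% lower. Of the list's 25 genes past the floor, 1 was higher and 1 lower to that degree. Counting differences of any size, 16 were lower, 4 higher and 5 identical, with a median log2 difference of -0.25. Of all genes past the floor, 44.4% were lower, 23.4% higher and 32.2% identical. Their median was 0.00, so all genes too were more often lower than higher. Stk4, the kinase MST1 that acts with RASSF5 on LFA-1, was the only member at least 2-fold lower (log2 values of 8.72 and 7.70, or 2.02-fold), and just under 2-fold with quantile normalization and cyclic loess. With ANGPTL4 against intralipid alone, the list's median was 0.28, with 16 members higher, 3 lower and 6 identical. Of all genes past the floor, 46.3% were higher, 23.0% lower and 30.7% identical. The adaptor Fyb (ADAP) was 2.46-fold higher in that comparison (8.66, 8.21 and 9.51). Rapgef3, the cyclic AMP sensor EPAC1, went the other way with 4.66, 6.35 and 4.66, which was 2.58-fold for intralipid over PBS against the floor. The final activators, talin (Tln1) and kindlin-3 (Fermt3), had 9.62, 9.84 and 9.46, and 9.32, 9.10 and 9.32.

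Cyth1, which encodes the cytohesin-1 that Cytip binds, shared the order of its partner. Its log2 value was 9.13 under PBS, 10.14 under intralipid and 8.77 under ANGPTL4, so that intralipid was 2.01-fold above PBS and ANGPTL4 2.58-fold below intralipid. The first of these fell just below 2-fold with the arrays centred on their medians (0.97 on the log2 scale) and with quantile normalization (0.99). The other cytohesin genes did not share this order, with Cyth4 lower on the intralipid array (10.63, 9.84 and 10.58), Cyth2 at 8.07 on all 3 arrays and Cyth3 at 8.18, 8.39 and 8.39. Arf6, the GTPase downstream, had 10.60, 10.61 and 10.60.

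Of 35 genes of the adhesion complex and its signalling past the floor, 1 was at least 2-fold lower with intralipid than under PBS, the actin regulator Coro1a (9.60, 8.23 and 9.45). Of all genes tested, 1.32% were lower. With ANGPTL4 against intralipid alone, Coro1a was 2.32-fold higher, Vav1, an exchange factor for Rac, 2.72-fold (8.60 and 10.05), and Vasp, which promotes actin filament growth, 2.19-fold (7.12 and 8.25). These were the 3 genes of the list past 2-fold in that comparison, where 2.53% of all genes were higher. Against PBS, the log2 differences of Vav1 were -0.89 with intralipid and 0.55 with ANGPTL4. Those of Vasp were -0.24 and 0.89, all short of 2-fold. Of 11 proteins that link immunoglobulin-type molecules to actin or accompany them in the membrane, 0 differed 2-fold. At most 2.53% of all genes did in any comparison and direction, so this count does not set so short a list apart. Among ligands and proteases, Tgfbi, a secreted integrin ligand, had 9.54, 8.44 and 11.32 and was 7.37-fold higher with ANGPTL4 than under intralipid alone, while Thbs1, the matrix protein thrombospondin-1, had 10.88, 12.97 and 9.95 and was 8.12-fold lower. Adam17, a sheddase that can release adhesion molecules from the surface, was 2.97-fold higher (9.72 and 11.29) and Mmp14 2.94-fold higher (10.30 and 11.86). Against PBS, the log2 differences of Adam17 were -0.87 with intralipid and 0.70 with ANGPTL4. Those of Mmp14 were -0.86 and 0.70, all short of 2-fold.

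**Figure D3:**
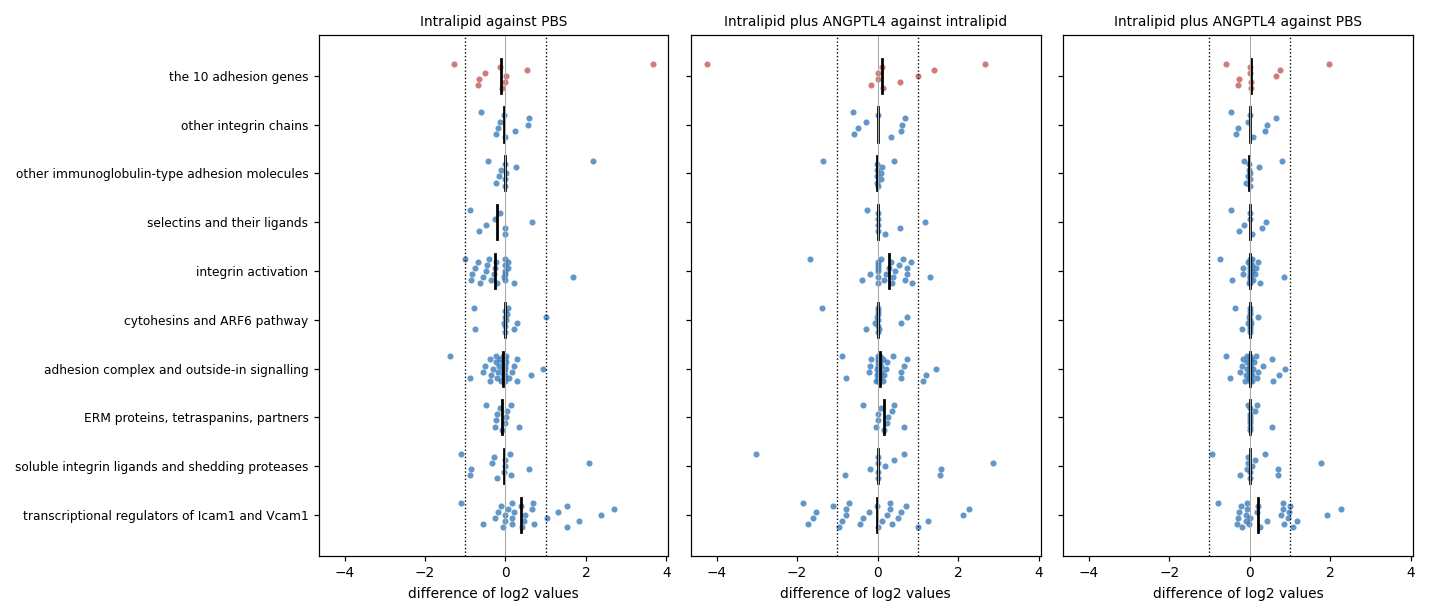
Difference of log2 values for each gene past the floor, by list, in the 3 comparisons, with the 10 adhesion genes in red, the 9 lists in blue, list medians as black bars and 2-fold as dotted lines. The integrin activation list had medians of -0.25 and 0.28 in the first and second comparison. Of the other integrin chains, 0 of 9 were past 2-fold, where at most 2.53% of all genes were in any comparison and direction.

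Transcription factors known to act on Icam1 and Vcam1, with the NF-kB inhibitors, formed the list with the most genes past 2-fold in each comparison. Of 27 past the floor, 7 were at least 2-fold higher and 1 lower with intralipid than under PBS, where 2.51% and 1.32% of all genes were. With ANGPTL4 against intralipid alone, 4 were higher and 5 lower, beside 2.53% and 2.3% of all genes. With ANGPTL4 against PBS, 5 were higher and 0 lower, beside 0.85% and 0.04%. Irf1, an interferon-induced factor, had log2 values of 6.69, 5.58 and 7.69, the same order as Icam1, and was 4.34-fold higher with ANGPTL4 than under intralipid alone. A second Irf1 probe set was below the floor at 4.27 on every array, and with the mean of both the log2 difference from intralipid alone was 1.06. Irf1 was also among the 5 genes higher with ANGPTL4 than under PBS, by a log2 difference of 1.00. That call was lost with arrays centred on their medians (0.97), quantile normalization (0.96), cyclic loess (just under 1) and the mean of both probe sets (0.50). The NF-kB inhibitors Nfkbia (8.26, 8.93 and 10.18) and Nfkbie (6.05, 6.05 and 8.32), which are themselves NF-kB targets, were also highest with ANGPTL4, 3.77-fold and 4.81-fold above PBS, but unlike Icam1 they were not lower with intralipid than under PBS. Jun, Fos and Ets2 instead had their highest value with intralipid alone, as Cytip did, with 9.69, 11.23 and 9.37 for Jun, 7.81, 10.19 and 8.64 for Fos, and 6.38, 9.08 and 7.35 for Ets2.

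The genes with profiles nearest to those of Icam1 and Cytip were sought among all genes past the floor, by Euclidean distance over the 3 arrays after each gene was centred on its mean. Nearest to Icam1 were Zc3h12c (distance 0.26), Tgfbi (0.29), Tarm1 (0.33), AW112010 (0.34), the death receptor Fas (0.39) and Marcksl1 (0.40). Nearest to Cytip were Lsmem1 (0.31), the cytokine gene Osm (0.39), the phosphatase gene Dusp10 (0.44), Il6 (0.48), the growth factor gene Vegfa (0.49) and Inhba (0.60). For comparison, Icam1 and Cytip lay 4.93 apart. Lsmem1 and Il6 were past the floor on the intralipid array only, and Tarm1, AW112010 and Fas were below it on that array, so the distances of these 5 rest in part on values below the floor. With 3 arrays a profile has few ways to vary, so near profiles are a description of these arrays.

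**Figure D4:**
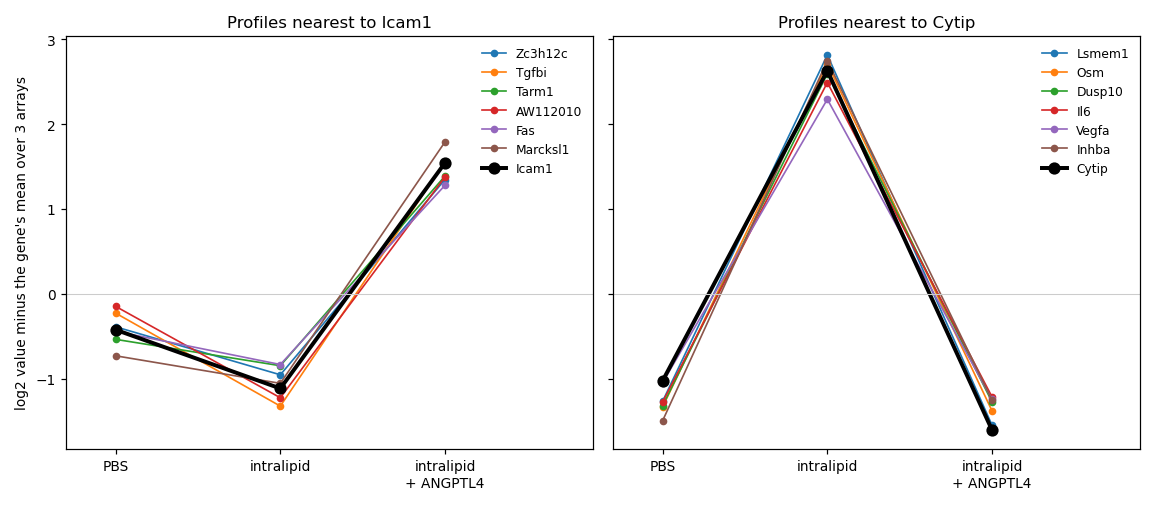
Log2 values centred on each gene's mean over the PBS, intralipid and intralipid plus ANGPTL4 arrays, for Icam1 (left) and Cytip (right, both in black) with the 6 genes of nearest profile. The genes were chosen for these shapes, so the shared peaks, on the array with ANGPTL4 at left and with intralipid alone at right, follow from the choice.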

How the data were processed

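The deposited table held log2 expression values for 35556 probe sets, 1 column per array, made by the authors with RMA per the submitters' processing notes. Its version, the chip definition and filters were not stated there. Per the labels' protocols, RNA of 3 samples was pooled per array. By the platform annotation in GEO, 21789 probe sets had a single symbol, and the probe set with the highest mean over the arrays stood for a gene. Values were used as deposited. Folds are 2 to the power of a log2 difference. Probe levels of different genes were not compared. With 1 array per group, no test was run, and the number of arrays limits the precision. Robust SDs are 0.5 times the distance between the 16th and 84th percentiles of differences, over the 1000 genes of nearest level. Summed marker levels are log2 of summed linear values. The members, lists, motifs and alternatives were chosen with earlier results of these data known. Named were all 10 members, up to 6 genes per list past 2-fold, 11 set genes of which 1 is not reported here, 6 nearest profiles each for Icam1 and Cytip, and a few chosen after their values were seen (Cyth2, Cyth3, Cyth4, Arf6 and cell type markers). Of 214 list symbols, 11 were not analysed here. Protein sequences were not used. The calling step was tested on simulated data. Python 3.11.15, pandas 2.3.3, R 4.3.3 and limma 3.58.1 (cyclic loess) were used.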

Additional observations from a re-analysis of the deposited data

How the results depend on the processing

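The alternatives were fold limits of 1.5 and 3, no floor, a floor at the 75th percentile, arrays centred on their medians, quantile normalization, cyclic loess and averaging a gene's probe sets. No paired analysis was possible because each group had 1 array. Over 4 of these settings and 3 comparisons, 120 differences of the 10 genes were recomputed. Those from averaging could not change, since each of the 10 genes had 1 probe set of its own. Centring on medians shifts all genes of a comparison by the same amount. The largest shift was 0.07 on the log2 scale, 0 called differences changed sign, and 2 calls changed, both for Itga4 with ANGPTL4 against intralipid (0.94 with quantile normalization and 0.99 with cyclic loess). The fold limit moved counts of the 10 genes. At 3-fold, 0 were lower with intralipid than with PBS and 1 was higher with ANGPTL4 than with intralipid. At 1.5-fold, 3 were lower with intralipid than with PBS and 3 higher with ANGPTL4 than with PBS. For the 9 lists together, with 151 genes past the floor, the limit of 1.5-fold gave these counts. With intralipid against PBS, 17 were higher and 16 lower, beside 5.07% and 5.57% of all genes tested. With ANGPTL4 against intralipid, 27 were higher and 18 lower, beside 8.26% and 4.95%. With ANGPTL4 against PBS, 20 were higher and 4 lower, beside 2.37% and 0.53%. Averaging its 2 probe sets took Irf1 to -0.56, 1.06 and 0.50 in the same comparisons. The median shift of all genes past the floor was at most 0.04 in size under the 3 normalizations.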
